A study of Mus musculus with 35 samples.

Results

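The genes described here code for the protein components of the cytosolic ribosome, the particle that translates messenger RNA in the cytoplasm. They were chosen by symbol and annotation alone: protein-coding genes named Rps or Rpl followed by a number and at most 1 letter a, x or l, with Rplp0, Rplp1, Rplp2 and Rpsa, in the Ensembl-based annotation of mouse genome build GRCm38. Among the 48709 genes in each count table, 80 met this rule, 31 of the small 40S subunit and 49 of the large 60S subunit. The genes lie on 19 chromosomes, with 14 of them on chromosome 7. Of the 80, 78 had enough counts to be tested among 13819 genes; the other two were Rpl10l, with 0 counts in all 35 libraries, and Rpl3l, with 12 counts in all.

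The cells were OT-I cytotoxic T lymphocytes (CTLs), mouse CD8+ T cells that carry a transgenic T-cell receptor for a peptide of ovalbumin and that were primed with antibodies to CD3 and CD28 and expanded in interleukin-2 (IL-2), the growth cytokine of T cells, before the experiment. RNA was sequenced at 0 h and after 24 h in medium at pH 7.4, pH 7 or pH 6.6, at each pH in the absence of IL-2 or in its presence at 200 IU/mL, in 5 numbered biological replicates for each of the 7 groups. Acidity was set with HCl, and dead cells were removed by density centrifugation before extraction. The 24 h libraries are therefore enriched for the cells that survived to that time, and the viability of the sequenced cells was not examined here. The study asked how extracellular acidity, as found in tumours, alters CTLs and their response to IL-2.

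A mammalian ribosome holds 1 copy of nearly every ribosomal protein, so the genes of both subunits are made in step. Their messenger RNAs begin with a terminal oligopyrimidine (TOP) tract, a C followed by an unbroken run of C and T, through which mTORC1 controls how actively they are translated and how long they are kept. The transcription factor c-Myc, the other main growth regulator downstream of IL-2 in T cells, raises ribosomal RNA synthesis and the factors that assemble ribosomes. Proliferating T cells make ribosomes at a high rate, and resting T cells keep a large store of TOP messenger RNA.

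Runs of C and T near the annotated start are shown for 6 of the genes whose values are given below, since TOP tracts are the feature by which these messenger RNAs are known. The promoter sequences came from RefSeq on build GRCm38.p6 and covered 250 bases before to 50 bases after each annotated start. A sequence was found for 60 of the 80 genes, and the windows are printed 5′ to 3′ on the strand of the gene, with the longest run of C and T found between 40 bases before and 50 bases after the start in capitals. The runs of Rps6, Rps27 and Rpl15 span the annotated start (first base at -1, -2 and -4, counted from 0 at the start). Those of Rps15a, Rps27l and Rpl5 (first base at -15, -22 and -20) lie wholly before the RefSeq start. In the Ensembl-based annotation, the runs of Rps15a and Rpl5 lie within the bounds of the gene, and the run of Rps27l lies before it. Whether any of them is the tract used in CTLs was not tested. Rps6, Rps15a, Rps27 and its paralog Rps27l belong to the 40S subunit, and Rpl15 and Rpl5 to the 60S subunit.
Rps6, chr4:86857347-86857376, minus strand: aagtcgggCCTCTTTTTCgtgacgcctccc
Rps15a, chr7:118116141-118116170, minus strand: ccggcccaCTCTCTTTCTgccatcttccct
Rps27, chr3:90213629-90213658, minus strand: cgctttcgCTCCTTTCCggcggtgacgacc
Rps27l, chr9:66946056-66946085, plus strand: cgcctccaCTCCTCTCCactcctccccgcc
Rpl15, chr14:18270969-18270998, minus strand: ggagaaagCCTTCTTCCTTTCCTCTggcgg
Rpl5, chr5:107900500-107900529, plus strand: tacagccaCTCTTTCTCacgtcgcttgcgt
A run of at least 8 C or T stood in that window in 50 of the 60 genes (83.3%), beside 36.0% of the 27025 genes in the promoter table, and the longest run had a median of 10 bases against 7. The longest runs of Rplp0, Rps3 and Rpsa, whose values are also given below, had only 7, 6 and 7 bases, so the 6 genes shown do not stand for all. The E-box CACGTG, the core site of c-Myc with its partner Max, stood in the 300-base window of 6 of the 60 (10.0%), beside 8.09% of all genes. CGGAAG, the core of ETS factor sites, searched like the E-box on both strands, stood in 41 of the 60 (68.3%), beside 18.8% of all genes. TATAAA stood in 6 of the 60 (10.0%) and in 15.7% of all genes. These matches describe letters near annotated starts, which can differ from the starts used in CTLs.

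The genes differed widely in how far they could be counted. Ribosomal protein genes have many processed copies in the genome, 276 of which were named in the tables, and a read that aligned to several places was not counted. Cut into windows of 50 bases, the coding sequence of the 78 genes tested was unique among annotated transcripts for a median of only 16.4% of windows. Of the 80 genes, 20 had no unique coding window, at this window length, which need not be the read length, while 16 had at least 50%. Rps3, at the mRNA entry of the 40S subunit, was unique over 93.3% of its coding windows, Rpl8 over 91.3% and Rpl4 over 79.7%. Levels are given as CPM, counts scaled by the total on genes of each library after TMM adjustment (the trimmed mean of M values, which evens out differences in library composition), and CPM per kilobase of exon, averaged over all libraries, ran from 2324 for Rplp1 through 1.23 for Rpl24 to 0.532 for Rpl39l. For Rps6, whose protein is the classical phosphorylation target of the kinase S6K downstream of mTORC1, no coding window was unique and the mean was 6.78 CPM per kilobase. Levels are therefore compared below only for the same gene between groups, never between genes.

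Each library held 16721319 to 34033340 counts on genes. All 7 CD8+ T-cell markers examined were detected in every library. Cd3e ran from 374 to 631 CPM and Cd8a from 674 to 1597 CPM, while the effector genes Gzmb (36.7 to 9010 CPM) and Prf1 (11.1 to 686 CPM) ranged more widely. Their sum was 9392 to 12079 CPM at pH 7.4 and 2924 to 4298 CPM at pH 6.6 with IL-2, and 2812 to 3205 and 2275 to 2663 CPM without, with no overlap in either condition. Another 16 markers of other cells summed to 9.59 to 97.2 CPM, of which the NK marker Klrb1c, which cultured CD8+ T cells can also express, gave 8.27 to 94.9, with Ms4a1 and Hbb-bs at 0. Reads that aligned to several places made up 32.8 to 48.3% of each library. The 0 h library of replicate 5 stood apart, with the highest share of such reads (48.3%) and the highest share of counts on ribosomal protein genes (7.43%), and the counts and medians against 0 h are given with and without replicate 5.

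Ribosomal protein genes took a larger share of the counted transcriptome in cells kept at pH 6.6 than in those kept at pH 7.4, with and without IL-2. With IL-2, they held 3.25, 3.08, 3.38, 3.62 and 4.28% of the counts on genes in the 5 replicates at pH 7.4 and 4.57, 5.05, 4.87, 4.87 and 5.22% at pH 6.6. The groups did not overlap, and the mean share rose from 3.52 ± 0.467% to 4.92 ± 0.241% (SD, n = 5), a ratio of 1.39 with 1.22 to 1.64 over the 5 replicate pairs. Without IL-2, the share was 3.97, 4.69, 3.71, 3.87 and 4.14% at pH 7.4 and 4.91, 5.11, 5.32, 5.90 and 5.14% at pH 6.6, again without overlap, with a ratio of 1.29 (1.09 to 1.52 over the pairs). At pH 7 the share was 3.32 to 3.67% with IL-2 and 3.55 to 4.24% without, with ratios to pH 7.4 of 0.987 and 0.991. With IL-2 it was above pH 7.4 in 4 of 5 pairs, and the ratio without replicate 5 was 1.034, so that no direction held. Without IL-2 it was above in 2 of 5 pairs. At 0 h the share was 5.63, 4.59, 4.59, 4.62 and 7.43%. The share of reads that aligned to several places was 36.8 to 40.6% at pH 7.4 and 36.2 to 37.9% at pH 6.6 with IL-2. Without IL-2 it was 32.8 to 37.1% and 36.7 to 39.5%, higher at pH 6.6 like the share of counts on these genes, and its part there was not tested. The share of reads outside genes was 3.91 to 5.18% at pH 7.4 and 7.34 to 8.83% at pH 6.6 with IL-2, without overlap, and 7.70 to 10.2% and 6.47 to 9.19% without IL-2. Its part in the larger share of ribosomal protein genes was not tested. The summed markers of other cells were also lower at pH 6.6, at 21.03 to 36.40 CPM against 44.2 to 47.4 with IL-2 and at 9.59 to 14.8 CPM against 30.2 to 45.8 without, and their part was not tested. As these are shares of the RNA of a bulk culture, a change in the cells present and a change in RNA per cell cannot be told apart.

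**Figure D1:**
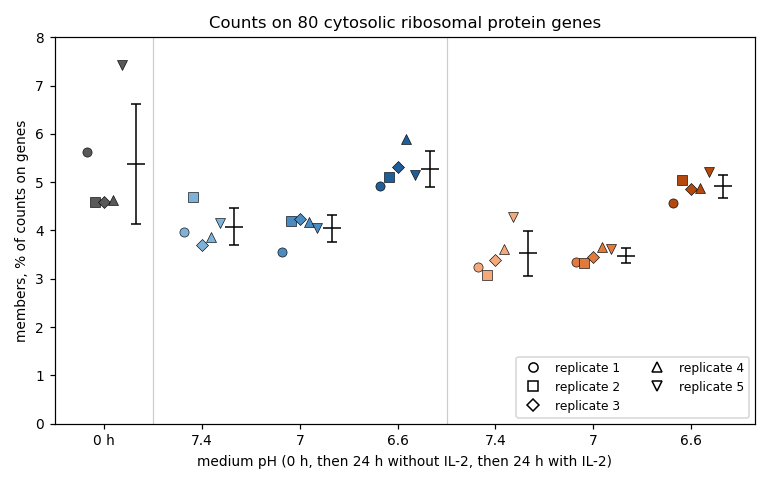
Percent of the counts on genes that fell on the 80 ribosomal protein genes (y axis) in each of the 35 libraries, by group (x axis). Symbols are replicates, and the bar beside each group is its mean ± SD (n = 5): both pH 6.6 groups sit above the pH 7.4 and pH 7 groups of the same IL-2 condition, and 1 library at 0 h reaches 7.43%.

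With IL-2 present, acidity divided the ribosomal protein genes. Between pH 7.4 and pH 6.6, 42 of the 78 rose, 16 fell and 20 did not pass the test, beside 35.4% of all 13819 genes called higher and 40.9% called lower. Their median log2 fold change was 0.32, with 0.11 to 0.55 over the 5 pairs, beside -0.07 for all genes tested and -0.03 for the 5835 genes whose mean log2 CPM reached 5. Of the 78, 26 lay above pH 7.4 in every library and 14 lay below it, beside 26.2% and 33.1% of all genes. The 40S genes (16 higher and 7 lower of 31) and the 60S genes (26 higher and 9 lower of 47) had medians of 0.47 and 0.32.

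The genes that fell were mostly those with few countable reads. Of the 33 genes with at least 200 CPM per kilobase, 27 rose and 1, Rpl8, fell, with a median of 0.56. Among the 24 genes with 50 to 200 CPM per kilobase, 10 rose and 4 fell, with a median of 0.20. In the 21 tested genes below 50 CPM per kilobase, 5 rose and 11 fell, with a median of -0.37 and a median of 0% unique coding windows. The part of read uniqueness in this split was not tested. Of the 16 genes that fell, 6 had no unique coding window at all. The 14 tested genes with at least 50% unique coding windows, a division made after the values were seen, had 10 that rose and 2 that fell, Rpl8 and Rps27l, with a median of 0.51.

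**Figure D2:**
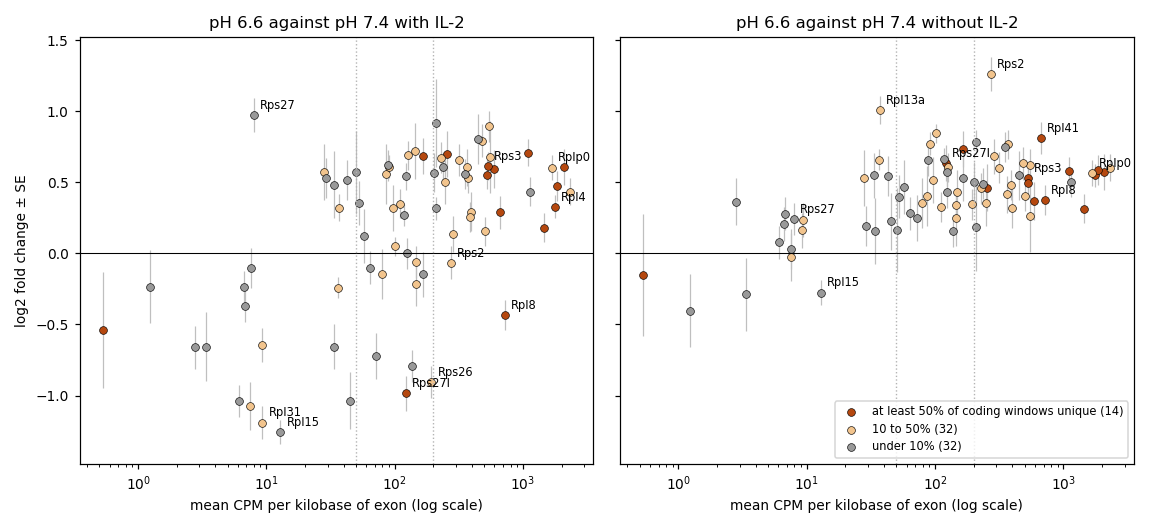
Log2 fold change ± SE of the 78 genes tested (y axis) against their mean CPM per kilobase of exon (x axis, log scale) for pH 6.6 against pH 7.4 with IL-2 (left) and without (right). Colours give the share of coding windows that is unique, and dotted lines mark 50 and 200 CPM per kilobase: with IL-2 the genes at the left of the panel lie mostly below 0 and those at the right mostly above it, where Rpl8 at -0.43 is the one called lower, while without IL-2 55 genes are called higher and 1 lower.

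The ribosomal stalk, which recruits translation factors to the 60S subunit, was among the best counted parts. Its base Rplp0 was at 1989, 2020.5, 1984, 2318 and 2483 CPM in the 5 replicates at pH 7.4 and at 2940.1, 3636, 3134, 3322 and 3355 CPM at pH 6.6 with IL-2. All 5 acidic libraries were higher than all 5 at pH 7.4 (log2 fold change 0.60 ± 0.09, adjusted p = 3.52e-07). The stalk proteins Rplp1 (log2 fold change 0.43 ± 0.10, adjusted p = 0.000142) and Rplp2 (log2 fold change 0.50 ± 0.16, adjusted p = 0.00442) rose as well, in 5 of 5 pairs each. Rps3 was chosen after its values were seen, as a highly counted gene with most coding windows unique, and was at 1597, 1589, 1709.8, 1834 and 2164 CPM at pH 7.4 and 2385, 2916, 2739, 2687 and 2847 CPM at pH 6.6. Its groups did not overlap (log2 fold change 0.61 ± 0.10, adjusted p = 1.64e-06). Rpl4, Rpl32 and Rps15, all among the 5 genes with the most CPM per kilobase, rose by 0.33 ± 0.08, 0.61 ± 0.13 and 0.47 ± 0.10, with adjusted p-values of 0.000528, 6.98e-05 and 0.000145.

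Other well counted genes with a known role rose by similar amounts. Rps19, mutated in Diamond-Blackfan anaemia, went from 528, 514, 497, 651 and 700.0 CPM to 841, 1049.7, 800.3, 1015 and 929.6 CPM, with no overlap (log2 fold change 0.69 ± 0.13, adjusted p = 1.21e-05). Rpl22, which developing αβ T cells need, went from 501, 429, 537, 503 and 674 CPM to 729, 833, 1002, 784 and 918 CPM (log2 fold change 0.70 ± 0.16, adjusted p = 0.000281), also without overlap. Rpsa, known as the laminin receptor precursor, rose by 0.56 ± 0.10 (adjusted p = 1.39e-05), and Rpl41, the smallest ribosomal protein, by 0.29 ± 0.11 (adjusted p = 0.0225). The largest increases among genes whose mean log2 CPM reached 3 included Rps27 (log2 fold change 0.98 ± 0.12, adjusted p = 7.99e-09), Rpl17 (log2 fold change 0.91 ± 0.31, adjusted p = 0.00946) and Rpl36 (log2 fold change 0.80 ± 0.17, adjusted p = 0.000116). Rps27 was at only 4.47 to 6.77 CPM at pH 7.4 and 9.45 to 12.3 CPM at pH 6.6, and Rpl17 had no unique coding window and a wide spread (242, 297, 530.5, 231 and 367 CPM at pH 6.6). Rps27a, which is made as a fusion with ubiquitin, differed by 0.12 ± 0.19 (adjusted p = 0.567) and Rpl38 by 0.48 ± 0.24 (adjusted p = 0.0635), and neither passed the test.

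The steepest decreases were larger than the steepest increases. Rpl15 was at 41.0, 46.5, 46.9, 46.3 and 49.0 CPM at pH 7.4 and 15.1, 20.3, 20.4, 19.7 and 20.8 CPM at pH 6.6, so that every acidic library was below every library at pH 7.4 (log2 fold change -1.26 ± 0.09, adjusted p = 1.17e-14). Rpl5, which with 5S ribosomal RNA and Rpl11 can bind the p53 regulator Mdm2, fell from 37.8, 30.1, 33.9, 37.3 and 40.6 CPM to 16.8, 16.2, 16.5, 17.1 and 20.9 CPM (log2 fold change -1.04 ± 0.11, adjusted p = 6.59e-10). Rpl11 differed by -0.24 ± 0.12 and did not pass the test (adjusted p = 0.0636). Rpl31 and Rpl27 fell by 1.19 ± 0.11 and 1.07 ± 0.17 on the log2 scale. These 4 genes that fell had 0 to 20.4% unique coding windows, and Rpl5 and Rpl31 share 24.3% and 25.3% of their exon bases with genes on the opposite strand. Rps6 fell by 0.37 ± 0.11 (adjusted p = 0.00425), at 9.48 to 15.4 CPM in these libraries.

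Rpl8 and Rps27l fell although most of their coding sequence was countable. Rpl8, a core 60S protein close to the peptidyl transferase centre, was chosen after its values were seen and was at 1094, 1116, 1065, 1314 and 1391 CPM at pH 7.4 and 867, 967, 774, 922 and 900.2 CPM at pH 6.6 with IL-2. The groups did not overlap (log2 fold change -0.43 ± 0.10, adjusted p = 0.000421), whereas Rps3 and Rplp0 in the same libraries were higher at pH 6.6. Rps27l, a paralog of Rps27 that p53 can induce, had 70.6% unique coding windows. It was at 164, 151, 166, 172 and 211 CPM at pH 7.4 and 72.2, 78.1, 91.7, 92.5 and 104 CPM at pH 6.6, again without overlap (log2 fold change -0.98 ± 0.12, adjusted p = 1.27e-08). Of the other paralogs, Rpl39l stayed at 0.0578 to 1.45 CPM in these 2 groups, and no difference was detectable at that depth.

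Without IL-2, acidity raised most ribosomal protein genes. At pH 6.6, 55 of the 78 were higher than at pH 7.4, 1 was lower and 22 did not pass, beside 31.6% of all genes called higher and 35.4% called lower. The median was 0.46, with 0.22 to 0.71 over the pairs, beside -0.03 for all genes and 0.15 for those whose mean log2 CPM reached 5. In 40 genes the acidic libraries all lay above those at pH 7.4, and in 0 they all lay below, beside 22.4% and 24.9% of all genes. Of the 33 genes with at least 200 CPM per kilobase 31 rose and 0 fell, and the median was 0.53. Below 50 CPM per kilobase, 6 of 21 rose and 1 fell, with a median of 0.21. With a log2 fold change of at least 0.5 also asked for, 33 genes rose and 0 fell, beside 18.6% and 25.4% of all genes. Rpl15 was the gene that fell, by 0.28 ± 0.09 (adjusted p = 0.00625).

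The strongest increase without IL-2 was in Rps2, a 40S protein at the mRNA entry channel. It was at 229, 294, 229, 249.6 and 276 CPM at pH 7.4 and 586, 614, 585, 732 and 537 CPM at pH 6.6 (log2 fold change 1.26 ± 0.12, adjusted p = 8.14e-11). With IL-2, Rps2 was at 465, 531, 523, 622 and 685 CPM and 478, 572, 547, 511 and 577 CPM, and its ranges overlapped (log2 fold change -0.07 ± 0.12). Rpl13a, which also takes part in a complex that silences inflammatory transcripts, rose from a range of 43.9 to 49.7 CPM at pH 7.4 to one of 87.8 to 106 CPM at pH 6.6 (log2 fold change 1.01 ± 0.10, adjusted p = 1.46e-10), with 35.4% of its exon bases shared with other genes on its strand. Rpl3, in the peptidyl transferase region, rose from a range of 196 to 231 CPM to one of 357 to 412 CPM (log2 fold change 0.84 ± 0.07, adjusted p = 2.06e-12). Rpl41 rose from 522, 684, 534, 538 and 646 CPM to 915, 987, 960.5, 1259.6 and 989 CPM (log2 fold change 0.81 ± 0.11, adjusted p = 2.26e-07). Rplp0 was at 2354, 2683, 2543, 2215 and 2857 CPM and 3219, 3620.2, 3718, 4167 and 3971 CPM, without overlap (log2 fold change 0.57 ± 0.09, adjusted p = 1.84e-06), and Rps3 rose by 0.53 ± 0.10 (adjusted p = 2.47e-05).

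The test of the difference between the 2 pH effects, the interaction of pH 6.6 with IL-2, called 28 of the 78 lower and 1 higher, beside 32.8% and 34.3% of all genes. The share called lower was close to that of all genes, and the share called higher was far below it. A negative value means that acidity raised a gene less, or lowered it more, with IL-2 than without. The median interaction was -0.17, and scaling to the total count on genes turned its sign (0.06, with 18 lower and 12 higher). The genes with at least 200 CPM per kilobase had a median of 0.04 and 5 called lower, while those below 50 had a median of -0.65 and 12 called lower. Rps27l had the most negative value (interaction -1.62 ± 0.17, adjusted p = 9.80e-10): without IL-2 it rose from 41.4, 59.2, 42.4, 63.3 and 47.7 CPM at pH 7.4 to 64.1, 82.0, 83.6, 90.9 and 72.8 CPM at pH 6.6. Rpl8 likewise rose without IL-2, from 766, 769, 717, 589 and 822 CPM to 878, 934, 930.2, 1062 and 924 CPM, for an interaction of -0.81 ± 0.15 (adjusted p = 1.61e-05). Rpl10, a late-joining 60S protein, fell with IL-2 (-0.66 ± 0.16) and rose without (0.55 ± 0.16), and its interaction was -1.20 ± 0.22 (adjusted p = 2.04e-05). In all, 6 genes fell with IL-2 and rose without it, and how many of all genes did so was not counted. Each of the 6 had a negative interaction that passed the test. As the interaction is the difference of the same 2 effects, its sign follows from those calls and adds no separate evidence. For Rps2 the interaction was -1.33 ± 0.17 (adjusted p = 2.54e-08). Rps27 was the gene with a positive call (interaction 0.73 ± 0.17, adjusted p = 0.000251). Rplp0, Rps3 and Rpl32 had interactions of 0.04 ± 0.13, 0.08 ± 0.14 and 0.04 ± 0.18, and none of these passed the test.

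**Figure D3:**
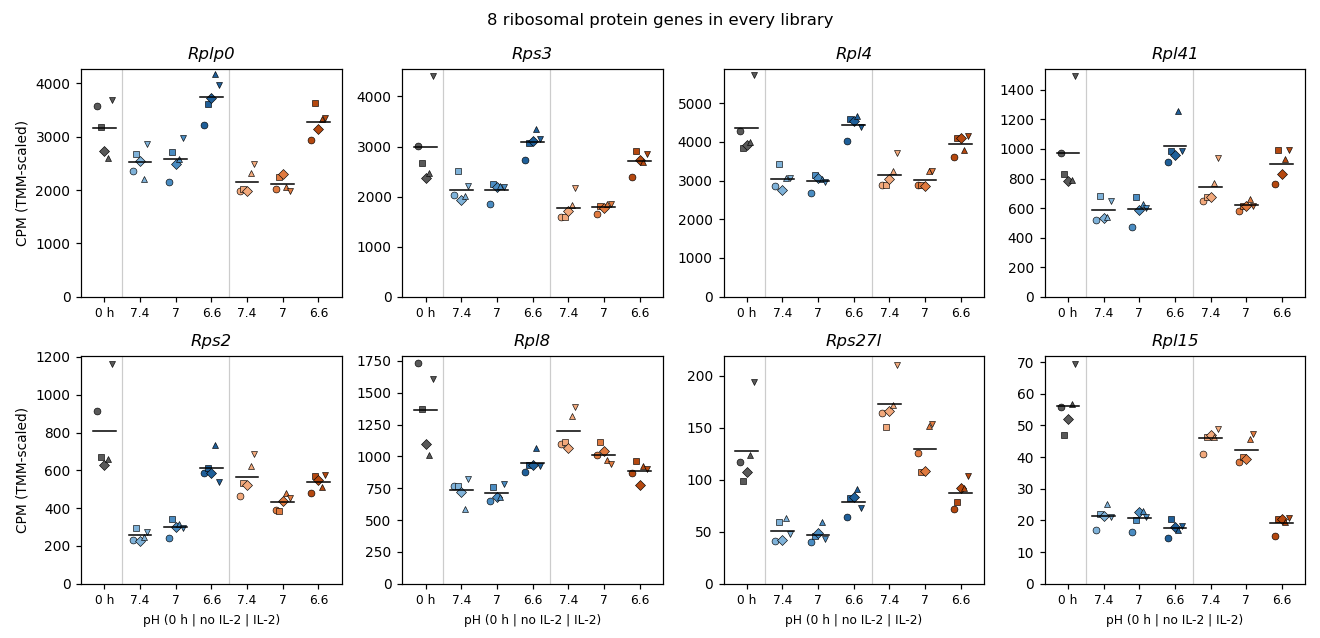
CPM (y axis, from 0) of 8 ribosomal protein genes in every library, by group (x axis); symbols are replicates as in the plot of shares and lines are group means (n = 5). Rplp0, Rps3, Rpl4 and Rpl41 have higher means at pH 6.6 in both IL-2 conditions, Rps2 leaves its pH 7.4 range without IL-2, and Rpl8 and Rps27l are lower at pH 6.6 with IL-2 but higher at pH 6.6 without it.

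IL-2 at pH 7.4 raised a share of these genes close to that of all genes, and lowered a smaller one. With IL-2, 29 of the 78 (37.2%) were higher than without and 18 (23.1%) were lower, beside 39.3% and 41.1% of all genes, and the median was 0.02, which became -0.14 when libraries were scaled to total counts and -0.04 when the ribosomal protein genes were left out of the scaling. In 20 genes all libraries with IL-2 lay above those without and in 2 all lay below, beside 32.8% and 33% of all genes. A log2 fold change of at least 0.5 was reached by 19 of those higher and 4 of those lower, beside 31.2% and 33.1% of all genes. The number lower was 33 under total count scaling, 10 without replicate 2 and 27 without replicate 5. Among the 33 genes with at least 200 CPM per kilobase 5 were higher and 15 lower (median -0.23), and among the 21 below 50 CPM per kilobase 13 were higher and 1 lower (median 0.67). Rps27l (log2 fold change 1.77 ± 0.13, adjusted p = 1.88e-14), Rpl31 (log2 fold change 1.50 ± 0.12, adjusted p = 1.34e-13), Rpl10 (log2 fold change 1.41 ± 0.16, adjusted p = 1.77e-09) and Rpl5 (log2 fold change 1.29 ± 0.11, adjusted p = 4.18e-12) had the highest values among genes whose mean log2 CPM reached 3. Rps2 (log2 fold change 1.14 ± 0.12, adjusted p = 2.35e-10) and Rpl8 (log2 fold change 0.71 ± 0.11, adjusted p = 2.85e-07) were higher with IL-2 and well counted. Rplp0 was lower by 0.23 ± 0.09 (adjusted p = 0.0206), Rps3 by 0.27 ± 0.10 (adjusted p = 0.0143) and Rps15a by 0.68 ± 0.20 (adjusted p = 0.00262). The share of counts on all 80 genes was 0.864 times as high with IL-2 as without, and lower in 4 of 5 pairs.

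At pH 7, 22 genes were higher with IL-2 and 13 lower (beside 37.6% and 39.5% of all genes), with a median of -0.02. The number lower was 21 when the ribosomal protein genes were left out of the scaling, 26 under total count scaling and 8 without replicate 3, and 0 of those lower reached a log2 fold change of 0.5, beside 30.9% of all genes. At pH 6.6, IL-2 made no difference that passed the test in any of the 78 genes, beside 13.2% of all genes called higher and 10.6% called lower, and 7 had an unadjusted p under 0.05. DESeq2 also called 0. A fit of these 2 groups alone, with its own estimate of the spread, called 5 higher and 24 lower. Log2 fold changes ran from -0.23 to 0.30, with a median of -0.16. Rps27l, which IL-2 had raised most at pH 7.4, differed by 0.15 ± 0.12 at pH 6.6, Rps2 by -0.19 ± 0.12 and Rpl8 by -0.10 ± 0.10.

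Few of these genes were called at pH 7. With IL-2, 0 genes rose and 5 fell at pH 7 (beside 9.15% and 9.83% of all genes), with a median of -0.06, and 16 had an unadjusted p under 0.05. Among them were Rpl31, Rps2, Rps26 and Rps27l, of which Rps26 was named because the count was small. Rps27l was at 126, 108, 109, 152 and 153 CPM at pH 7, above every library at pH 6.6 (log2 fold change -0.42 ± 0.12, adjusted p = 0.0138), and Rpl31 fell by 0.49 ± 0.11 (adjusted p = 0.00202). None of the 5 fell by 0.5 or more on the log2 scale (0, beside 1.86% of all genes). Leaving out replicate 3 left 2 calls and leaving out replicate 2 left 3, and a fit of these 2 groups alone called 18 lower and 1 higher. Without IL-2, edgeR called 0 genes at pH 7 in either direction, as did DESeq2, beside 1.36% of all genes higher and 0.318% lower, and 3 genes had an unadjusted p under 0.05. The median was -0.08.

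Relative to the cells at 0 h, ribosomal protein genes were lower after 24 h at pH 7.4. With IL-2, 55 of the 78 were lower and 4 higher, beside 30.9% of all genes called lower and 29% called higher, with a median of -0.50 (-0.66 to -0.22 over the pairs). Without replicate 5 these values were 50 lower, 3 higher and -0.40. Those higher included Rpl27, Rpl31 and Rps27l, which fell at pH 6.6 with IL-2. The pH 7.4 libraries with IL-2 enter this comparison and that with pH 6.6, so the results are not independent. Of the 4, 2 reached a log2 fold change of 0.5, beside 16.2% of all genes. Leaving out replicate 4 gave 1 gene higher and leaving out replicate 3 gave 2. Without IL-2, 62 were lower and 1, Rps27, was higher, beside 38.3% and 36.9% of all genes, with a median of -0.52. Without replicate 5, 52 were lower and the median was -0.37. Of the 62, 41 fell by at least 0.5 on the log2 scale, beside 28.6% of all genes. Rplp0 was at 3573, 3173, 2728, 2607 and 3692 CPM at 0 h, against 1984 to 2483 CPM at pH 7.4 with IL-2. Rpl22, in which replicate 5 reached 1719 CPM against 654 to 920.5 in the other 0 h libraries, was at 429 to 674 CPM at pH 7.4 with IL-2. Rps2 was at 915, 672, 630.2, 659 and 1160.2 CPM at 0 h and at 229 to 294 CPM at pH 7.4 without IL-2, with no overlap. The share of counts on the 80 genes was 0.656 times that at 0 h with IL-2 and 0.759 times without, or 0.686 and 0.836 without replicate 5. Both comparisons share the 0 h libraries, and their values are given side by side for that reason.

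The genes for factors that build ribosomes had different values. Of 30 ribosome biogenesis factors, which include nucleolar proteins and RNA polymerase I components, 30 fell and 0 rose at pH 6.6 with IL-2, beside 40.9% and 35.4% of all genes. The median log2 fold change of the 30 was -2.11 (-2.58 to -1.81 over the pairs). Among them were Nop56 (-2.04 ± 0.15), Nop58 (-2.40 ± 0.11), fibrillarin Fbl (-1.74 ± 0.13) and Polr1b (-2.53 ± 0.15). IL-2 raised all 30 at pH 7.4, beside 39.3% of all genes, with a median of 2.43, when the median of the cytosolic genes was 0.02. Without IL-2, acidity lowered 16 and raised 4 of the 30, beside 35.4% and 31.6% of all genes, with a median of -0.37. At pH 6.6, IL-2 raised 24 of the 30 and lowered 0, beside 13.2% and 10.6% of all genes, with a median of 0.73. In the same comparison 0 of the 78 cytosolic genes passed the test in the fit over all groups, and their median was -0.16. The fit of these 2 groups alone called 5 of the 78 higher and 24 lower. The 77 tested genes for ribosomal proteins of the mitochondrion fell for the most part as well. With IL-2, 64 fell and 4 rose at pH 6.6 (median -0.96), beside 40.9% and 35.4% of all genes. IL-2 at pH 7.4 raised 68 and lowered 3 of the 77 (median 0.96), beside 39.3% and 41.1% of all genes. For both lists, the pH 7.4 libraries with IL-2 enter this comparison and that of pH 6.6 with IL-2, which are not independent. Without IL-2, acidity raised 24 (31.2%) and lowered 15 (19.5%) of these mitochondrial genes (median 0.08), beside 31.6% and 35.4% of all genes.

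Among 17 other TOP messenger RNAs, mostly translation factors, acidity without IL-2 raised 13 and lowered 0, with a median of 0.43 beside 0.46 for the ribosomal protein genes. These counts stand beside 31.6% and 35.4% of all genes. With IL-2, 7 rose (41.2%) and 6 fell (35.3%), close to the 35.4% and 40.9% of all genes, with a median of -0.04. Those that rose included the elongation factor Eef1a1 (0.52 ± 0.06) and the ribosome-bound scaffold Rack1 (0.45 ± 0.08). Those that fell included Eef1g (-0.76 ± 0.08) and the nucleolar chaperone Npm1 (-0.39 ± 0.11), and both were raised by IL-2 at pH 7.4, by 1.31 ± 0.08 and 0.95 ± 0.12. The pH 7.4 libraries with IL-2 are shared by the comparisons, which are not independent. These lists are described by counts and medians, and no test of a list against other genes was made.

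**Figure D4:**
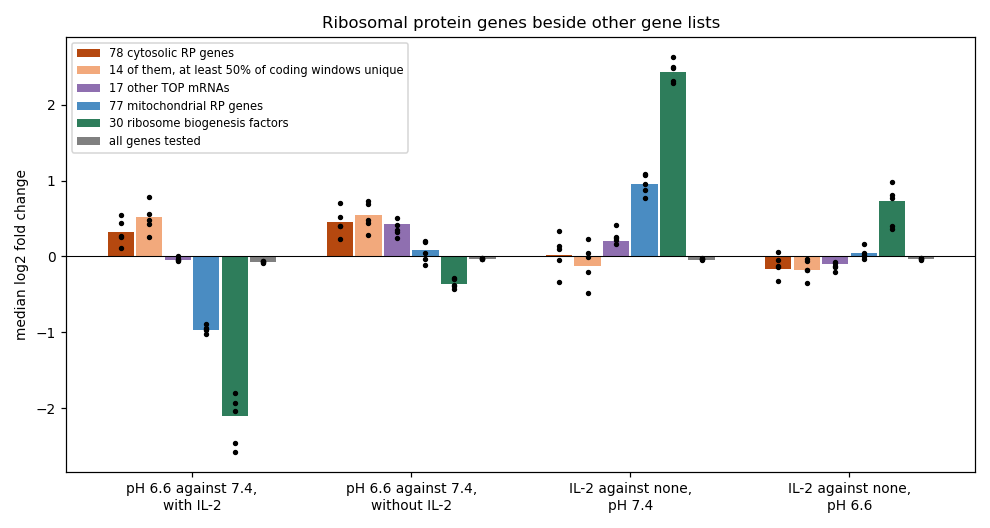
Median log2 fold change (bars, from 0) of the cytosolic ribosomal protein genes, of the 14 with at least 50% unique coding windows, of 3 other lists and of all 13819 genes in 4 comparisons. Points are the medians of the 5 replicate pairs: at pH 6.6 with IL-2 the cytosolic genes have a median of 0.32 where the biogenesis factors have -2.11 and the mitochondrial ribosomal proteins -0.96.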

How the data were processed

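The authors deposited 1 table of raw read counts per gene for each of 35 libraries of polyadenylated RNA, and the submitters' processing notes name cutadapt 1.8, STAR 2.5.2b, HTSeq 0.6.1 and build GRCm38. Read length and strand setting of the counting are not given in the sources used here. Rows for uncounted reads were left out of library sizes. Counts were fitted with edgeR 4.0.16 (R 4.3.3; TMM scaling, robust quasi-likelihood, filterByExpr with a minimum count of 10) over all 7 groups with the replicate number as a block, because the study compared its replicates in pairs. Genes with a Benjamini-Hochberg adjusted p under 0.05 over all 13819 genes tested were called. Deviations of same-numbered libraries correlated at 0.198 to 0.416 for pH 6.6 against pH 7.4 with IL-2, and above 0.1 in 5 of 5 pairs in 7 of 9 comparisons. CPM used TMM-adjusted library sizes, and shares of counts used the unadjusted total on genes. Values after ± are standard errors for fold changes. The replicates are labelled biological, and whether cells came from separate mice is not given there. No 2 libraries of a group were alike within sampling noise (lowest chi-square per degree of freedom 6.65 over 70 pairs). Genes were named if paralogs, of known role, among the 5 with the most CPM per kilobase, or at the extremes of a comparison; others are marked in the text. Members and lists were chosen with earlier results of these data known. The scripts were tested on simulated data. Alternatives were DESeq2 1.42.0, other scalings and filters, fits without the block or of the compared groups alone, and leaving out each replicate. Some genes are counted in the totals but are not reported here by name.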

Additional observations from a re-analysis of the deposited data

Results flagged for a closer look

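In all, 175 groups of 5 libraries were examined, for some of the named genes, the share of counts and the share of reads aligned to several places. Of these, 16 (9.14%) had 1 library whose gap to the others passed Dixon's 95% critical value. Chance gives about 1 in 20 for independent groups, but these groups share libraries and are not independent. The 0 h library of replicate 5 stood apart for 8 genes, with the highest value of its group: 1947 CPM for Rplp1, 1010.0 for Rplp2, 3957 for Rpl32, 5738 for Rpl4, 360.7 for Rpl36, 193.7 for Rps27l, 1719 for Rpl22 and 1493 for Rpl41. That library also held the highest share of reads aligned to several places (48.3%). Replicate 1 at pH 7 without IL-2 stood apart for Rps15 (857 CPM), Rps3 (1848 CPM) and the share of counts on all ribosomal protein genes (3.55%). At pH 7.4 without IL-2, replicate 2 stood apart for Rplp2 (661 CPM) and replicate 1 for Rps27 (11.1 CPM). At pH 6.6, replicate 4 without IL-2 stood apart for Rpl41 (1260 CPM), and with IL-2 replicate 1 stood apart for Rpl15 (15.1 CPM) and replicate 5 for Rpl5 (20.9 CPM).

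The interaction term of edgeR called 28 of the 78 genes lower and 1 higher, beside 32.8% and 34.3% of all genes, so that the share called lower was close to that of all genes. Some of the genes named here were chosen as the extremes of this term. By it, the effect of pH 6.6 differed between cells with and without IL-2 for 15 of the genes considered here. Besides Rps27l (-1.62), Rpl31 (-1.43), Rps2 (-1.33), Rpl10 (-1.20), Rpl5 (-1.12) and Rpl27 (-1.05), these were Rpl15 (-0.98), Rpl8 (-0.81), Rpl28 (-0.81), Rpl3 (-0.79), Rpl13a (-0.69), Rps6 (-0.65), Rpl41 (-0.52) and Rpl11 (-0.45), all on the log2 scale. Rps27 had a positive interaction (0.73).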

How the results depend on the processing

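The median at pH 6.6 against pH 7.4 kept its positive sign under every scaling tried, with and without IL-2. Scaling to total counts shifted the median of all genes by 0.23 for the interaction, by -0.15 for pH 6.6 without IL-2 and by -0.16 and -0.12 for IL-2 at pH 7.4 and pH 7. It gave 1 gene higher at pH 7 with IL-2, 33 lower with IL-2 at pH 7.4 (median -0.14), 26 lower with IL-2 at pH 7, and an interaction with 12 higher, 18 lower and a median of 0.0616. Scaling without the ribosomal protein genes gave a median of -0.0439 for IL-2 at pH 7.4, 21 lower at pH 7 and 2 positive interactions. The IL-2 median at pH 7.4 was also -0.0347 with at least 10 counts in every library, -0.0011 in a fit of the compared groups, and, as alternatives added after seeing the data, -0.0806 at 50 or more CPM per kilobase and -0.12 at 50% or more unique coding windows. The latter gave 0.51 for pH 6.6 with IL-2. Fits of the compared groups alone gave 1 higher and 18 lower at pH 7 with IL-2, 1 and 3 without, 5 and 24 for IL-2 at pH 6.6, and 2 positive interactions. Genes with at least 95% unique windows had medians of 0.61 for pH 6.6 with IL-2, -0.29 and -0.28 for IL-2 at pH 7.4 and pH 7, 0.11 for the interaction and -0.67 for pH 7.4 with IL-2 against 0 h, and share ratios of 1.008 and 1.005 for pH 7 with and without IL-2 and 0.793 for IL-2 at pH 7. Asking for a log2 fold change of at least 0.5 left 0 lower at pH 7 with IL-2, 33 higher and 0 lower at pH 6.6 without IL-2, 19 higher and 4 lower for IL-2 at pH 7.4, 0 lower for IL-2 at pH 7, and 2 higher with and 41 lower without IL-2 against 0 h. The causes were not tested.

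Leaving out 1 replicate gave 1 to 2 positive interactions, 1 to 3 genes higher at pH 7.4 with IL-2 than at 0 h, 0 to 1 lower at pH 6.6 without IL-2, 2 to 6 lower at pH 7 with IL-2, 8 to 19 lower for IL-2 at pH 7 and 10 to 27 at pH 7.4. The IL-2 medians ran from -0.0519 to 0.0457 at pH 7.4 and from -0.0947 to 0.0905 at pH 7, and the share ratios for pH 7 from 0.968 to 1.034 with IL-2 and from 0.957 to 1.019 without. Without the replicate block, 40 genes were higher and 16 lower at pH 6.6 with IL-2 (median 0.32), and 9 of 370 results on named genes lost their call. Over all alternatives, 4591 of 4797 values for named genes kept their side of the threshold, 95 gained a call and 111 lost one. Among values called in either fit, 0 turned direction. Changes of direction among uncalled values were not counted, and some occurred.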

Other observations

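Values for pH 6.6 against pH 7.4 follow for cytosolic ribosomal proteins whose symbols fall outside the name rule, and for their relatives. Fau, whose product is a fusion of a ubiquitin-like protein with Rps30, rose by 0.97 ± 0.14 with IL-2 and by 0.63 ± 0.14 without. Rpl7l1, a relative of Rpl7 that acts in assembly of the 60S subunit, fell in both conditions (-1.89 ± 0.07 with IL-2 and -0.74 ± 0.07 without) and was higher with IL-2 at pH 7.4 by 1.64 ± 0.07. Rps3a1 rose without IL-2 by 0.31 ± 0.12 and differed with IL-2 by -0.20 ± 0.12. Rpl22l1 and Rpl36al did not pass the test for either pH effect.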
